A study of Mus musculus with 6 samples.

Results

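The 10 genes described here encode the enzymes that make, store and break down triglyceride in fat cells: Pck1, Gpd1, Gpam, Agpat2, Dgat1, Dgat2, Lipe, Pnpla2, Mgll and Lpl. They were taken by symbol from a table of 29721 genes, in which each of the 10 appears once. Messenger RNA was sequenced from pancreas tissue of Ela-myc mice aged 3 months, in which Myc is driven by the elastase promoter, a promoter active in the enzyme-secreting acinar cells. All 6 animals carried that transgene; 3 were wild type for Parp2 and 3 were Parp2 knockouts, 1 library per animal. The labels do not give the sort of knockout allele, the strain, or which piece of the organ was taken, and the extraction protocol speaks of tumours whereas the tissue label is pancreas. The question addressed was how loss of PARP2, an enzyme that adds ADP-ribose to proteins at DNA breaks, bears on pancreatic tumour development.

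In a fat cell, triglyceride is built on glycerol 3-phosphate, which comes from glucose or, by glyceroneogenesis, from pyruvate through the phosphoenolpyruvate carboxykinase encoded by Pck1. Acyl groups are added one after another by the GPAT, AGPAT and DGAT enzymes, and stored fat is released again by ATGL, hormone-sensitive lipase and monoglyceride lipase acting in sequence. Lipoprotein lipase, secreted and carried to the capillary wall, frees fatty acids from circulating lipoproteins for uptake. Pck1 is also the gene of gluconeogenesis in liver and kidney, and several of the other genes are read at lower levels in muscle, macrophages and epithelia.

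Library totals lay between 28105021 and 32055565 counts, so that depth does not limit the members, each of which had at least 273 counts in every library. Values below are CPM, counts scaled to library size after TMM normalisation, and an adjusted p under 0.05 counts as a call. Parp2 itself stood at 36.4 to 40.5 CPM in the wild-type mice against 12.4 to 14.4 CPM in the knockouts. Digestive enzyme genes, the defining acinar markers, made up 27.9%, 29.8% and 22.9% of the counts of the wild-type libraries and 4.33%, 14.6% and 0.0179% of knockout replicates 1, 2 and 3, so that knockout replicate 3 was nearly without pancreatic markers. The adjusted p of the 25 acinar genes ran from 0.103 to 0.577 (edgeR). Results are therefore also given without that library. Transcripts of Xist and of Y-linked genes marked 1 female and 2 males in wild type and 2 females and 1 male in knockout.

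Markers of fat cells moved with genotype. All 8 of 8 markers (Adipoq, Plin1, Plin4, Cidec, Adig, Trarg1, Cfd and Retn) were higher in knockout, with a median log2 fold change of 3.21. Beside the marker counts here, 28% of all tested genes were called higher and 25% lower. Their summed level was 533, 438 and 1112 CPM in the wild-type mice against 6332, 4946 and 6025 CPM in the knockouts. Among the other lists, T and B cell markers rose in 10 of 10 genes (summed level 129 to 354 CPM in wild type, 1192 to 1891 CPM in knockout), and endothelial markers rose in 7 of 8 (310 to 351 against 779 to 893 CPM). Of 10 macrophage markers 1 rose and 3 fell (2161 to 2416 against 2425 to 2861 CPM), and of 8 islet markers 1 fell (1388 to 3365 against 1.75 to 602 CPM). Of 5 tested liver markers 3 fell, and the 10 listed summed to 52.5 to 135 CPM in the wild-type mice against 4.27 to 28.8 CPM in the knockouts, with Apoa1, Fgb, Fga, Cps1 and Serpina1a under 1 CPM in every library. Of 4 tested kidney tubule markers 1 rose, and Slc34a1 and Slc12a1 stayed under 1 CPM throughout. The 6 genes of that list summed to 61.0 to 79.4 against 3.32 to 34.0 CPM, of which Nphs1, a podocyte rather than a tubule gene, made up 50.8 to 64.9 CPM in wild type and 1.03 to 24.4 CPM in knockout. Enterocyte markers summed to at most 6.85 CPM and muscle markers to at most 14.05 CPM in any library, and 3 markers of skin or mammary epithelium to at most 4.54 CPM. Of 4 tested brown fat markers 1 rose and 1 fell, and the summed levels overlapped, at 13.5 to 22.7 CPM in the wild-type mice against 12.1 to 21.9 CPM in the knockouts. Dio2, which fell, made up 10.6 to 15.1 CPM of that sum in wild type and 2.57 to 5.99 CPM in knockout. Cox8b rose from 0.927 ± 0.898 to 6.63 ± 3.85 CPM (mean ± SD, n = 3), and Cidea and Ppara were not called. Ucp1, the heat-producing uncoupler that defines brown fat, stayed under 1 CPM in all 6 libraries. In bulk tissue, more fat cells and more RNA of these genes per cell cannot be told apart. Setting the members against fat cell markers, as done below, does not separate these either. The part of these cell types in the results below was not tested.

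All 10 genes were higher in knockout, each by edgeR's quasi-likelihood test adjusted over 17652 genes. None was lower, with 0 of 10 at an unadjusted p under 0.05 and 0 by DESeq2 or limma. For comparison, 28% of all tested genes were called higher and 25% lower. The median log2 fold change was 2.20 over the 10 genes and 0.02 over all genes tested. Wild-type and knockout values did not overlap for any of the 10, which was so, with knockout higher, for 34.4% of all tested genes. The gap between the groups was widest for Pck1, whose lowest knockout library stood 10.8 times above its highest wild-type library, and narrowest for Agpat2, at 1.86 times. Without knockout replicate 3, 9 of the 10 were called, the exception being Dgat2, and 23.5% of all genes were called higher.

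**Figure D1:**
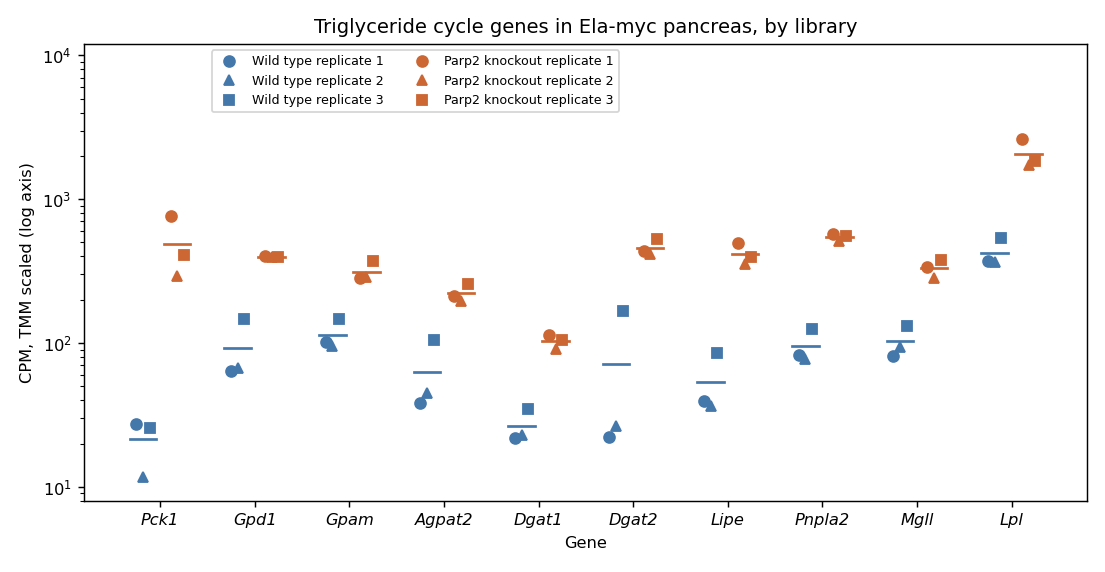
CPM of the 10 triglyceride cycle genes in each library on a log axis, wild type in blue and Parp2 knockout in orange, with symbols for replicates 1 to 3 and a line at each group mean (n = 3). In every gene the 3 knockout points lie above the 3 wild-type points, and wild type replicate 3 is the highest wild-type point in 9 of 10 genes.

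Pck1 (ENSMUSG00000027513, chromosome 2, 173153048 to 173159273, GRCm38) changed the most. It had 27.2, 11.7 and 25.8 CPM in the wild-type mice against 763.9, 294.1 and 409.8 CPM in the knockouts. Knockout replicate 1 was the highest by far, 2.60 times knockout replicate 2, and wild type replicate 2 was the lowest. The means were 21.6 ± 8.56 and 489.3 ± 244.7 CPM (SD, n = 3), a log2 fold change of 4.50 (edgeR adjusted p = 0.00265, SE 0.529), and over 18 other settings it ran from 4.04 to 4.91. Pck2, which encodes the mitochondrial form of the same enzyme, went the other way, from 148 ± 24.3 to 46.7 ± 19.8 CPM (log2 fold change -1.67, edgeR adjusted p = 0.00792). Knockout replicates 1, 2 and 3 had 40.7, 68.7 and 30.6 CPM of Pck2. It was highest in the library richest in digestive enzyme transcripts and lowest in the one nearly without them. Its call held under the 18 other settings (log2 fold change -2.06 to -1.18). Per kilobase of exon, the ratio of Pck1 to Pck2 was 0.430, 0.153 and 0.467 in wild type and 42.7, 9.74 and 30.5 in knockout. The exact permutation p of that ratio was 0.1, the smallest that 3 against 3 allows, and 0.125 after adjustment over the 10 ratios computed.

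RefSeq promoter windows were found for 6 of the 10 genes (Agpat2, Gpam, Lipe, Mgll, Pck1 and Pnpla2). Those of Pck1, Pnpla2 and Gpam are shown because these genes had the largest change, the smallest adjusted p and the smallest change of the 10. They are printed from 5′ to 3′ in the direction of transcription, from GRCm38.p6: Pck1 at chr2:173152823-173153047 (plus strand), Pnpla2 at chr7:141454938-141455187 (plus strand) and Gpam at chr19:55127239-55127488 (minus strand). Capitals mark matches on either strand to the motifs searched. The Pck1 stretch holds 225 of the 250 bases searched and stops where the annotated gene begins, which is upstream of the RefSeq start. Its GC box, 16 to 11 bases before the RefSeq start, is therefore not printed.
Pck1: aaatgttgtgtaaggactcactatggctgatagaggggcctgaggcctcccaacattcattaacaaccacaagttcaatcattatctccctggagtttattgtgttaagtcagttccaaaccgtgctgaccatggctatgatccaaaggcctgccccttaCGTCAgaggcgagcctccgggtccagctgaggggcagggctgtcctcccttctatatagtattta
Pnpla2: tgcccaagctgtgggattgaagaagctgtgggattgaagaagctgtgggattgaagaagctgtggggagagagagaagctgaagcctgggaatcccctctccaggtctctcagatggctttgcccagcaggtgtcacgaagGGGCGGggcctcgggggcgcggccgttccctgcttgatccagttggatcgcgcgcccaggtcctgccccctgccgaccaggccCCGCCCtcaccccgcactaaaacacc
Gpam: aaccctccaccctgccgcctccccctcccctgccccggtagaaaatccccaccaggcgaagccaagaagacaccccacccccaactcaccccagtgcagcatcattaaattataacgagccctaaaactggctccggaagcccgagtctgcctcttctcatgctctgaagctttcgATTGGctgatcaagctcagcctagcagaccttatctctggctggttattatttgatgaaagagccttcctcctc
In Pck1 the capitals are a reverse match to TGACG, the core of the cAMP response element, 90 to 86 bases before the RefSeq start. The core also lies in the second Gpam window and is present in 17.8% of the 32851 promoter windows of 250 bases. Pnpla2 has a pair of GC boxes (GGGCGG, in 32.7% of windows), and Gpam has a reverse CCAAT box (33.8% of windows). A GC box lay in at least 1 window of each of the 6 genes. AGGTCA, the half-site of nuclear receptors (14% of windows), occurred only in the second Gpam window. Its direct repeat with 1 base between, the form PPARG binds, was in 0 of 9 member windows and 0.0335% of all. CACGTG, the E-box (6.02% of windows), was in Lipe and Mgll, and TATAAA (12.4% of windows) in none of the 9. A match is a run of letters and was not shown to be bound here.

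Gpd1 (chromosome 15, 99717515 to 99725005), the cytosolic enzyme that reduces dihydroxyacetone phosphate to glycerol 3-phosphate, was the most even member in knockout. Its levels were 63.4, 67.1 and 146.1 CPM in the wild-type mice against 405.5, 394.9 and 395.4 CPM in the knockouts. The knockout libraries thus lay within 1.03 times of each other, whereas wild type replicate 3 stood 2.24 times above the mean of the other wild-type libraries. The log2 fold change was 2.11 (edgeR adjusted p = 0.0052, SE 0.348). Gpd1l, a related enzyme, had 76.5 ± 1.73 and 87.7 ± 7.15 CPM (mean ± SD, n = 3) and was not called (edgeR adjusted p = 0.0896), though it was under scaling by library totals alone or with a filter of 10 CPM in 3 libraries.

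Of 11 other genes that supply glycerol 3-phosphate, 5 rose, 3 fell and 3 were not called, with a median log2 fold change of 0.20. Beside this list and those that follow, 28% of all tested genes were called higher and 25% lower. Aqp7, the glycerol channel of fat cells, rose from 2.55 ± 1.44 to 31.2 ± 6.98 CPM, and the related channel gene Aqp3 from 0.351 ± 0.121 to 2.19 ± 0.928 CPM. Pdk4, whose kinase holds pyruvate back from oxidation, rose from 7.98 ± 4.78 to 56.5 ± 18.9 CPM. Slc25a10, the mitochondrial dicarboxylate carrier gene, rose from 61.0 ± 15.3 to 101.5 ± 18.6 CPM (mean ± SD, n = 3), but the call was lost on leaving out wild type replicate 1 or 2, or knockout replicate 1 or 3 (edgeR adjusted p up to 0.0858). Besides Pck2, the malate dehydrogenase gene Mdh2 fell by 0.53 and the glycerol kinase gene Gk by 0.41 on the log2 scale. Both lost the call under scaling by library totals alone, which moved the median of all genes by 0.40, and Gk lost it when any 1 library was left out (edgeR adjusted p up to 0.123). Of the steps of gluconeogenesis that follow in liver and kidney, G6pc and Fbp1 were too low to be tested, at no more than 1.14 CPM and 0.387 CPM in any library. G6pc3 and Slc37a4, which encode a widespread glucose-6-phosphatase and its transporter, fell by 0.53 and 0.58 on the log2 scale. These calls ended under scaling by library totals alone and without knockout replicate 1 (edgeR adjusted p = 0.0565 and 0.0867). That of Slc37a4 did not survive leaving out wild type replicate 2, wild type replicate 3 or knockout replicate 3 (edgeR adjusted p = 0.0624, 0.0517 and 0.0658).

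The 4 acyltransferase genes rose, with log2 fold changes from 1.46 to 2.67. Gpam (chromosome 19, 55067268 to 55127238), the mitochondrial GPAT that adds the first acyl group, had the smallest change of the 10. It measured 101, 95.1 and 146 CPM in the wild-type mice against 281, 287 and 372 CPM in the knockouts, a log2 fold change of 1.46 (edgeR adjusted p = 0.00332, SE 0.205). Agpat2 (chromosome 2, 26593057 to 26604417), which adds the second acyl group and whose loss in people causes congenital lipodystrophy, measured 38.3, 44.8 and 105.6 CPM against 214, 197 and 258 CPM. Wild type replicate 3 was 2.54 times the mean of the other wild-type libraries, and the log2 fold change of 1.83 (edgeR adjusted p = 0.0139, SE 0.414) had the second largest error of the esterification genes. Agpat2 overlaps the endothelial gene Egfl7 on the opposite strand, which went from 34.4 ± 1.12 to 70.7 ± 1.56 CPM. The strand setting of the counting is not given in the sources used here, so reads of the overlapping parts cannot be assigned with certainty.

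Dgat1 and Dgat2 encode unrelated proteins that both add the last acyl group. Dgat1 (chromosome 15, 76502015 to 76511953) had 22.0, 23.1 and 34.8 CPM in the wild-type mice against 113, 90.6 and 105 CPM in the knockouts, with a log2 fold change of 1.95 (edgeR adjusted p = 0.00214, SE 0.204). The lowest knockout library stood 2.60 times above the highest wild-type one. Dgat2 (chromosome 7, 99153658 to 99182719) had 22.1 and 26.5 CPM in wild type replicates 1 and 2 but 167 CPM in replicate 3, against 434, 413 and 530 CPM in knockout. That library stood 6.88 times above the mean of the other wild-type libraries, the largest such gap of the 10 genes. The log2 fold change of 2.67 had the largest error (edgeR adjusted p = 0.0432, SE 0.859). The Dgat2 call ended when any library except wild type replicate 3 was left out (adjusted p from 0.0727 to 0.113), without a count filter (0.126) and with the acinar level as a term (0.0996), whereas without wild type replicate 3 the log2 fold change was 4.23 (adjusted p = 0.00382). The ratio of Dgat2 to Dgat1 per kilobase was 0.998, 1.14 and 4.76 in wild type and 3.79, 4.52 and 4.99 in knockout, so that wild type replicate 3 fell among the knockout libraries (exact permutation p = 0.3, adjusted 0.333).

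Of 12 tested genes among the other acyltransferases and lipins, 5 rose, 3 fell and 4 were not called, while Gpat2 was too low to be tested. The median log2 fold change was 0.39. Gpat3, the GPAT of the endoplasmic reticulum in fat cells, rose the most, from 4.88 ± 0.966 to 50.2 ± 15.2 CPM (log2 fold change 3.36, edgeR adjusted p = 0.00201, SE 0.289). Gpat4, a close relative, had 90.6 ± 2.22 and 102.5 ± 18.2 CPM (mean ± SD, n = 3) and was not called (edgeR adjusted p = 0.289), but under scaling by library totals alone it was (log2 fold change 0.58, edgeR adjusted p = 0.0215). Agpat1 had 58.2 ± 2.44 and 57.6 ± 7.09 CPM, a log2 fold change of -0.02 whose sign turned under 5 of 18 other settings. Mogat1, a monoacylglycerol acyltransferase gene, rose from 0.702 ± 0.617 to 6.99 ± 1.77 CPM, and Agpat3 and Agpat4 rose by less (log2 fold changes 0.54 and 0.76). Agpat5, Lpin3, which encodes a phosphatidate phosphatase, and Lclat1 fell, by 1.33, 1.72 and 0.32 on the log2 scale. Of the other lipin genes, Lpin1 rose from 36.9 ± 20.9 to 166 ± 18.6 CPM (log2 fold change 2.17, edgeR adjusted p = 0.00706). Lpin2 was not called (edgeR adjusted p = 0.0964). Lpin3 had 6.35, 10.8 and 4.11 CPM in knockout replicates 1, 2 and 3, the order of their digestive enzyme share. The wild-type libraries did not follow that order: Lpin3 had 17.7, 21.1 and 30.9 CPM there, highest in replicate 3, whose share was the lowest. It lost the call without knockout replicate 1 (edgeR adjusted p = 0.0637). Lclat1 lost it on omission of wild type replicate 1, wild type replicate 2 or knockout replicate 3 (adjusted p from 0.0506 to 0.0687) and stood at 0.089 under scaling by library totals alone.

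Before esterification a fatty acid is joined to coenzyme A. Of 5 acyl-CoA synthetase genes, Acsl1, the main form of fat cells, rose from 90.2 ± 36.8 to 682 ± 89.1 CPM (mean ± SD of 3 animals each; log2 fold change 2.92, edgeR adjusted p = 0.00217). Acsl3 fell by 0.94 on the log2 scale (edgeR adjusted p = 0.027), a call lost without wild type replicates 1 or 3 or knockout replicates 1 or 3 (adjusted p up to 0.095) and under scaling by library totals alone (adjusted p = 0.102). The other 3 were not called.

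**Figure D2:**
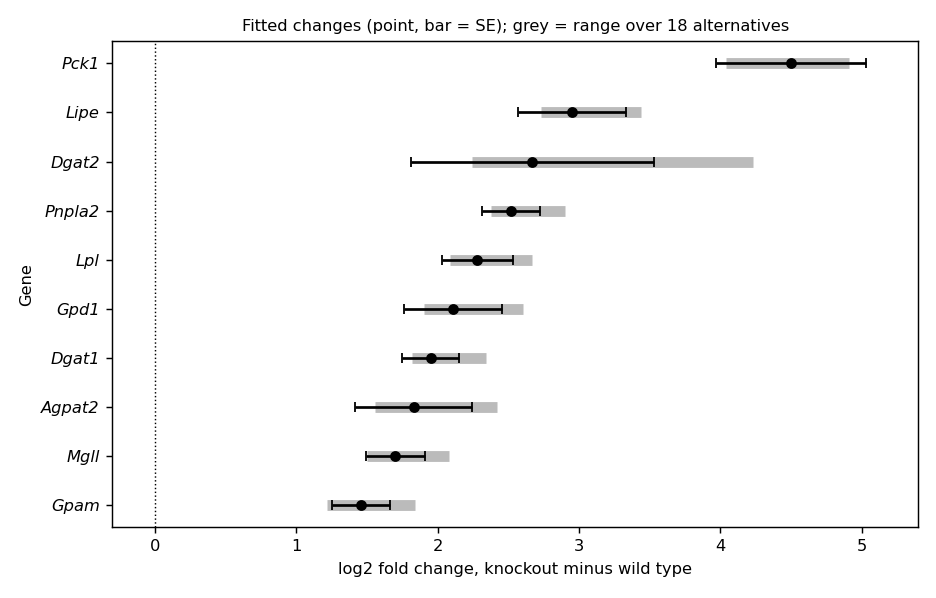
Fitted log2 fold change of each gene, knockout minus wild type, as a point with its SE, and in grey the range over 18 other settings, 6 of which leave out a library. All values lie above 0, from 1.46 for Gpam to 4.50 for Pck1, and Dgat2 has the widest range, 2.24 to 4.23.

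The 3 intracellular lipases rose. Lipe (chromosome 7, 25379527 to 25398710), the gene of hormone-sensitive lipase, the main diglyceride lipase of fat, had 39.6, 36.3 and 85.4 CPM in the wild-type mice against 498, 354 and 396 CPM in the knockouts. The lowest knockout library stood 4.14 times above the highest wild-type one, and the log2 fold change was 2.95 (edgeR adjusted p = 0.00311, SE 0.384). Pnpla2 (chromosome 7, 141455198 to 141460743), the gene of ATGL, which starts triglyceride breakdown, had 83.1, 77.2 and 125 CPM against 569, 513 and 554 CPM. Its groups were tight and well apart, with a log2 fold change of 2.52 (edgeR adjusted p = 0.00201, SE 0.207). Mgll (chromosome 6, 88724412 to 88828360), whose lipase completes the sequence and also degrades the endocannabinoid 2-arachidonoylglycerol, had 81.9, 94.1 and 132 CPM against 337, 285 and 376 CPM. Its log2 fold change was 1.70 (edgeR adjusted p = 0.00255, SE 0.207), the smallest of these 3 lipases. Mgll and Lipe overlap antisense genes of low level, at no more than 2.15 CPM on average in either genotype (Gm26588 and 4732471J01Rik). Mgll also overlaps Gm44005, Gm43999 and Gm44001 on the same strand and Gm43937 on the opposite one. Gpam, Gpd1 and Agpat2 overlap AC110206.1, Gm16537 and Gm20532 on the opposite strand. The levels of these other overlapping genes are not given here.

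Proportions among the lipases were also compared within libraries. Per kilobase, the ratio of Mgll to Lipe was 2.39, 3.01 and 1.79 in wild type and 0.784, 0.935 and 1.10 in knockout. That of Pnpla2 to Lipe was 4.09, 4.15 and 2.86 against 2.23, 2.83 and 2.73, where wild type replicate 3 was close to the knockout libraries. Neither ratio overlapped between the groups (exact permutation p = 0.1 each, the smallest possible, and 0.125 after adjustment over 10 ratios).

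Of 11 cofactors and other lipases, 6 rose, 1 fell and 4 were not called, with a median log2 fold change of 1.27. Abhd5, the activator of ATGL, rose from 32.6 ± 3.72 to 78.6 ± 13.0 CPM, and G0s2, its inhibitor, from 9.49 ± 2.77 to 48.0 ± 13.0 CPM (mean ± SD of 3 animals each; edgeR adjusted p = 0.00254 and 0.00257). Relative to Pnpla2 in the same library and per kilobase, Abhd5 stood without overlap at 0.0779, 0.063 and 0.0777 in knockout against 0.198, 0.191 and 0.148 in wild type, whereas G0s2 overlapped, at 0.250, 0.270 and 0.395 against 0.320, 0.365 and 0.351 (exact permutation p = 0.1 and 0.4, adjusted 0.125 and 0.4). The carboxylesterase genes Ces1d and Ces1f, of which Ces1d also cleaves triglyceride in fat, rose from 124 ± 34.3 to 464 ± 30.2 CPM and from 5.99 ± 3.30 to 82.4 ± 13.9 CPM. They belong to a cluster of near-identical copies, so their reads may be split. Hilpda, a hypoxia-induced ATGL inhibitor, fell from 10.6 ± 0.638 to 6.93 ± 0.68 CPM, a call lost without knockout replicate 1 (edgeR adjusted p = 0.0521) and under scaling by library totals alone (0.266).

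Lipolysis in fat cells is switched on by catecholamines through cAMP and off by insulin and lactate. Of 15 genes of this signalling, 10 rose and 5 were not called, with a median log2 fold change of 0.46. Hcar1, the lactate receptor gene, rose from 7.28 ± 1.63 to 41.4 ± 10.2 CPM. Pde3b, whose phosphodiesterase carries the insulin signal, rose from 61.0 ± 6.84 to 162 ± 25.7 CPM, and Prkar2b, the protein kinase A subunit gene of fat and brain, from 23.8 ± 7.05 to 161 ± 40.3 CPM (mean ± SD of 3 animals each; edgeR adjusted p at most 0.00214 for these 3 genes).

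Lpl (chromosome 8, 68880491 to 68907448), the gene of lipoprotein lipase, had the highest level per kilobase of the 10 in either genotype. It measured 374, 367 and 537 CPM in the wild-type mice against 2630, 1735 and 1850 CPM in the knockouts. Knockout replicate 1 was the highest, 1.52 times knockout replicate 2, and the groups were far apart, with a log2 fold change of 2.28 (edgeR adjusted p = 0.00222, SE 0.251). Gpihbp1, which encodes the endothelial protein that carries the lipase to the capillary wall, rose from 7.09 ± 1.33 to 20.9 ± 3.30 CPM (mean ± SD of 3 animals each; log2 fold change 1.56, edgeR adjusted p = 0.00259). Its ratio to Lpl per kilobase was 0.0623, 0.0818 and 0.0634 in wild type and 0.0375, 0.0413 and 0.0471 in knockout, without overlap (exact permutation p = 0.1, adjusted 0.125).

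Of 16 measured genes of lipoprotein lipase partners and fatty acid uptake, 7 rose, 4 fell and 5 were not called, with a median log2 fold change of 0.17. Among uptake genes, the fatty acid receptor gene Cd36 rose from 146.5 ± 58.6 to 1143 ± 145 CPM, Slc27a1 from 90.7 ± 26.2 to 264 ± 10.9 CPM and the fatty acid carrier gene Fabp4 from 183 ± 106 to 2298 ± 336 CPM. Lmf1, needed for lipoprotein lipase to mature, fell from 28.2 ± 3.81 to 18.4 ± 1.90 CPM, its relative Lmf2 from 91.7 ± 5.82 to 45.1 ± 5.12 CPM, and Sel1l, of the quality control that lipoprotein lipase also passes through, from 949.5 ± 55.2 to 288 ± 166 CPM. Fabp5 fell from 60.9 ± 6.28 to 30.7 ± 1.44 CPM (mean ± SD, n = 3). The calls of Lmf1 and Sel1l ended without knockout replicate 1 (edgeR adjusted p = 0.0513 and 0.0635), and that of Lmf1 under scaling by library totals alone (0.157). Sel1l had 226, 476 and 162 CPM in knockout replicates 1, 2 and 3, highest in the library richest in digestive enzyme transcripts and lowest in the one nearly without them. The wild-type libraries did not follow that order, at 960, 890 and 998 CPM, highest in replicate 3, whose digestive enzyme share was the lowest.

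Over the 73 tested genes of these 7 lists, 34 rose and 14 fell (46.6% and 19.2%), against 28% and 25% of all genes, and the median log2 fold change was 0.27. Under scaling by library totals alone 43 rose and 6 fell (58.9% and 8.2%), against 42.3% and 12.2% of all genes under that scaling. Among the genes named above, Acsl1, Cd36, Mogat1, Gpat3, Aqp7, Fabp4 and Ces1f had log2 fold changes between 2.92 and 3.78. With the acinar level as a term the calls of 8 named pathway genes ended (Gk, Slc25a10, Acsl3, Lclat1, Hilpda, Lmf1, G6pc3 and Slc37a4, edgeR adjusted p from 0.0682 to 0.174). Calls fell over the whole table with that term, to 17.6% of all genes higher and 13.6% lower. The acinar share did not overlap between the genotypes, so that term and genotype cannot be fully separated. Gk also lost its call without a count filter, with a filter of 10 CPM and with sex as a term (adjusted p = 0.0766, 0.0506 and 0.0964), and Lclat1 with sex as a term (0.0552).

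**Figure D3:**
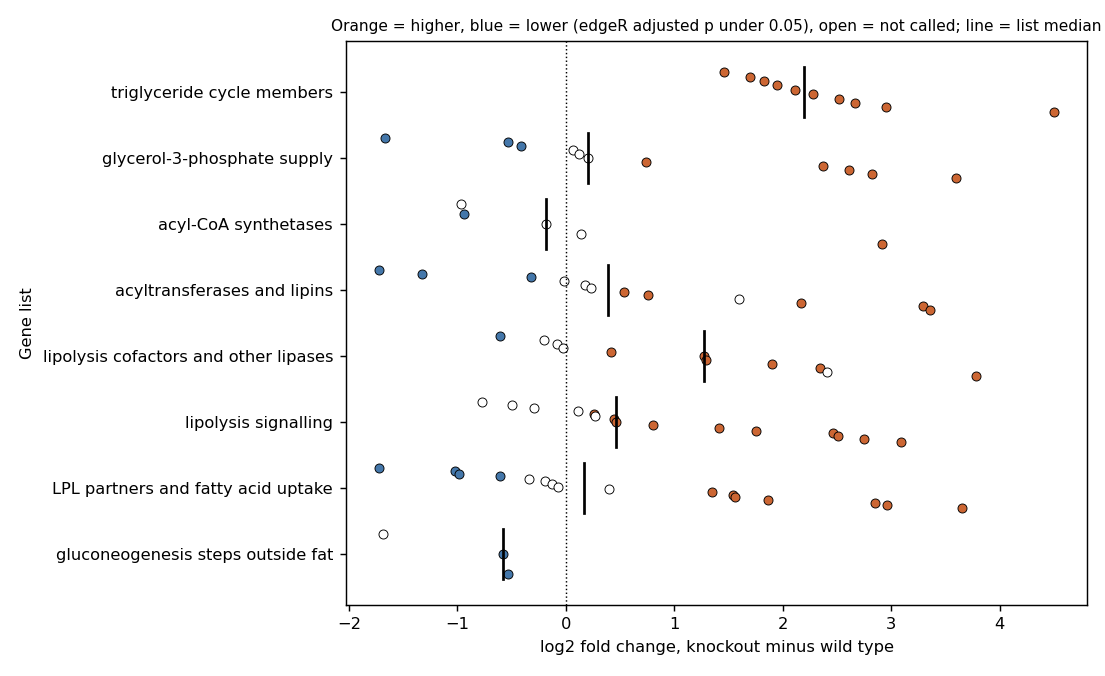
Log2 fold change, knockout minus wild type, of the 10 members and of 73 tested genes in 7 pathway lists, 1 point per gene, orange where called higher, blue where called lower and open where not called, with a line at each list median. The members all lie to the right of 0 with a median of 2.20, while each other list spans 0 except the gluconeogenesis list, whose 3 genes lie below it.

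Levels can be compared between genes only per kilobase of merged exon, which depends on how many isoforms are annotated. On that scale Lpl led in wild type at 40.7 ± 9.22 CPM per kilobase, followed by Pnpla2 (31.5 ± 8.65), Gpd1 (31.1 ± 15.8), Agpat2 (29.5 ± 17.4), Dgat2 (23.3 ± 26.8), Mgll (20.2 ± 5.14) and Gpam (17.1 ± 4.18). Lipe (9.13 ± 4.66), Dgat1 (8.71 ± 2.33) and Pck1 (6.30 ± 2.497) came last. Neighbours in this order differed by less than the larger SD of the pair, except Gpam and Lipe. In knockout the order was Lpl (198 ± 46.5), Pnpla2 (180.5 ± 9.61), Dgat2 (149 ± 20.3), Pck1 (143 ± 71.4), Gpd1 (135 ± 2.02), Agpat2 (105 ± 14.9), Lipe (70.6 ± 12.6), Mgll (65.5 ± 8.92), Gpam (47.0 ± 7.60) and Dgat1 (33.7 ± 3.77; SD, n = 3 each, CPM per kilobase). Here Lpl and Pnpla2, Dgat2 and Pck1, Pck1 and Gpd1, and Lipe and Mgll differed by less than the larger SD, and the other neighbours by more. Pck1 thus went from the last place to the fourth, although its knockout SD spans the levels from Agpat2 to Lpl.

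Because fat cell markers differed between the genotypes, each member was also set against them in the same library, as log2 of its count over the geometric mean count of the 8 markers. On this scale most genes must come out lower in knockout, and 93.6% of all genes were called lower and 0.0567% higher. Of the 10 members 5 were called lower and 0 higher by edgeR with libraries scaled to the markers, and the same counts came from limma. At an unadjusted p under 0.05 there was 1 higher, Pck1. The members' rise was smaller than that of the markers by 1.95 for Gpam, 1.72 for Mgll, 1.44 for Dgat1, 1.42 for Agpat2 and 1.16 for Gpd1 (log2 fold changes of -1.95, -1.72, -1.44, -1.42 and -1.16, SE 0.54 to 0.566, edgeR adjusted p from 0.00067 to 0.0379).
The other 5 members had no call on this scale. Lipe stood at -0.33 (edgeR adjusted p = 0.553, SE 0.539) and Dgat2 at -0.26 (adjusted p = 0.638). Pnpla2 and Lpl stood at -0.87 and -1.13 (adjusted p = 0.122 and 0.0639). Pck1 was the single member above the markers, at 1.07 (edgeR adjusted p = 0.0517, SE 0.545). Its values were -0.12, -1.14 and -1.43 in wild type and 0.91, -0.20 and -0.11 in knockout, which overlap, and knockout replicate 1 was the highest.

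Calls on this marker scale changed with single libraries, and so did the fitted error, which is borrowed from all genes. The SE of Pnpla2 went from 0.551 to 0.163 without wild type replicate 3. The Gpd1 estimate stayed between -1.27 and -1.06 over 10 other settings. Without wild type replicate 3, Pnpla2 and Lpl were also called lower (-1.06 and -1.35, edgeR adjusted p = 0.000773 and 0.00235), as Lpl was with Adipoq and Plin1 as the only markers (-1.11, adjusted p = 0.0451), and Dgat2 turned to 0.39 (adjusted p = 0.0906). The Gpd1 call ended when any library except wild type replicate 3 was left out (adjusted p up to 0.145), that of Agpat2 without knockout replicate 1 (0.0724) and that of Dgat1 without knockout replicate 3 (0.0584). Pck1 was called higher without wild type replicate 1 (1.57, adjusted p = 0.0312), with Adipoq and Plin1 as the only markers (1.08, adjusted p = 0.031), with the median of marker ratios (1.15, adjusted p = 0.0273) and with a filter of 10 CPM in 3 libraries (1.07, adjusted p = 0.0491).

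**Figure D4:**
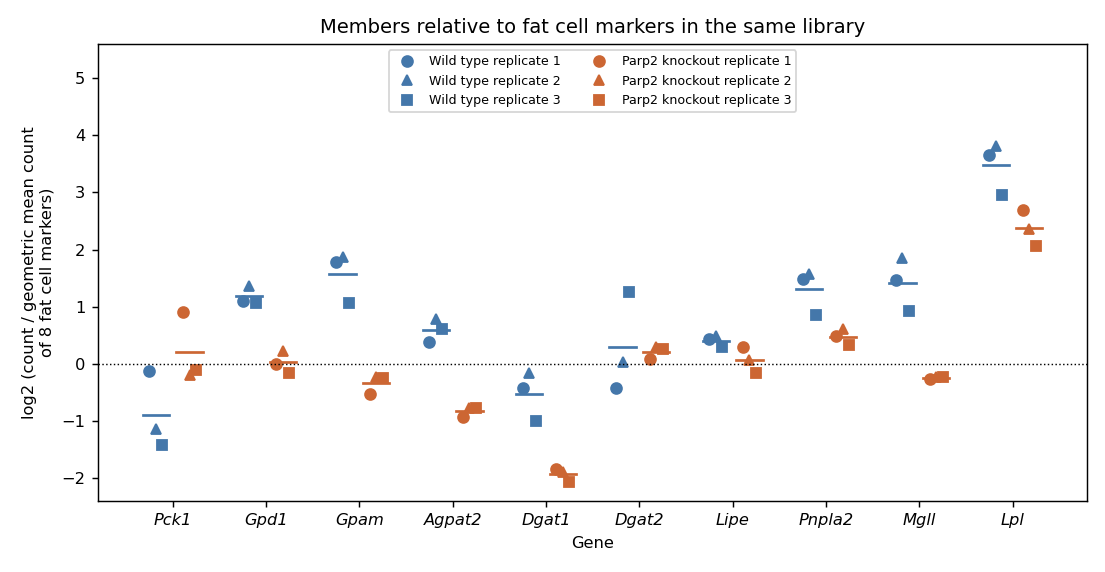
Log2 of each gene's count over the geometric mean count of 8 fat cell markers in the same library, wild type in blue, Parp2 knockout in orange, with symbols for replicates 1 to 3 and a line at each group mean (n = 3). Knockout lies below wild type for 8 of 10 genes without overlap, as for 93.7% of all tested genes (0.0736% lie above), while Pck1 and Dgat2 overlap.

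The genes whose profile over the 6 libraries was nearest to that of Pck1, by the root mean square difference of log2(CPM + 0.5) from the wild-type mean among 15078 genes, were Ces1f (0.57), the lipid droplet gene Cidec (0.60), Fabp4 (0.66), the Fc receptor gene Fcamr (0.73) and the plasmacytoid dendritic cell gene Siglech (0.75). None followed Pck1 closely, and their log2 fold changes lay between 3.44 and 3.93. Nearest to the median profile of the 10 members were Sgcd (0.11), the estrogen receptor gene Esr1 (0.15), Aifm2 (0.16), Proca1 (0.18) and Abhd15 (0.18), the last a gene of insulin control of lipolysis, with log2 fold changes from 2.11 to 2.53. That median profile was -0.27, -0.30 and 0.42 in wild type and 2.42, 2.13 and 2.19 in knockout, where fat cell markers stood at -0.33, -0.53 and 0.74 and at 3.32, 3.13 and 3.57. Single members varied unevenly among knockouts, the highest library standing from 1.03 times (Gpd1) to 2.60 times (Pck1) above the lowest.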

How the data were processed

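The authors deposited raw whole-number counts for each gene, and a table of log2 values, with Ensembl identifiers and symbols. The submitters' processing notes list DESeq2 1.28.1, STAR 2.5.3a and FastQC 0.11.5, without their roles, and the build GRCm38 (mm10). For the counting, program and strand setting were not given in the sources used here. Per the labels' protocols, libraries were stranded mRNA libraries from total RNA. The deposited log2 values matched log2(count / DESeq2 size factor + 1) to within 5.15e-14.

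Counts were tested with edgeR 4.0.16 in R 4.3.3 (robust quasi-likelihood F-test, TMM scaling, default group-wise filter, 17652 of 29721 genes kept, genotype alone), with Benjamini-Hochberg adjustment over all genes tested. Standard errors are the absolute log2 fold change over root F. For the marker scale, library sizes were replaced by the geometric mean count of 8 fat cell markers, and the fit borrows its spread from all genes. Exon lengths, overlaps and strands came from GENCODE vM21 (GRCm38). Libraries came from different animals per the series design text, and no pair within a genotype agreed within sampling noise (chi-square per degree of freedom 29.1 to 461). The alternatives were DESeq2 1.42.0, limma 3.58.1, other scalings, filters and thresholds, a term for sex or for acinar level, and omission of each library in turn. The procedure was tested on simulated counts in which few genes changed. That setting lacks the large acinar differences of these data, so it does not show how the scaling performs under them. The members and gene lists were chosen with earlier results of these data known. The genes named were the 10 members, in each list up to 4 called genes of smallest p in each direction, 8 fixed relatives and the 5 nearest profiles. A gene that this rule selects is not reported here. Listed genes without a row in the table used (Apoc2 and Apoa5 in the pathway lists) were not analysed here.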

Additional observations from a re-analysis of the deposited data

How the results depend on the processing

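All 10 members kept a positive log2 fold change under each of 18 alternatives. When each library was left out in turn, 9 or 10 were called, while 20% to 28% of all genes were called higher. The fewest, 8, were called at an adjusted p under 0.01, where Agpat2 and Dgat2 lost the call and 15.7% of all genes were called higher. In any of the alternatives 0 members were called lower. Only Dgat2 lost the call under other alternatives. Among pathway genes 34 rose and 14 fell; the falls numbered 6 under scaling by library totals alone, 5 at an adjusted p under 0.01 and 8 with the acinar level as a term, where the share of all genes called lower went from 25% to 12.2%, 11.9% and 13.6%. When each library was left out the falls numbered 6 to 15 and the rises 26 to 35, while 14.1% to 27.5% of all genes were called lower and 20% to 28% higher. Relative to fat cell markers, 1 member in place of 0 was called higher with the median of marker ratios, with Adipoq and Plin1 alone and with a filter of 10 CPM in 3 libraries. When each library was left out, 0 to 1 were called higher and 3 to 7 lower, in place of 0 and 5. In the main fit on that scale 0.0567% of all genes were called higher and 93.6% lower. The shares of all genes under the other settings are not given here, so these member counts cannot be set against them. Signs turned for Dgat2 relative to the markers (0.39 without wild type replicate 3, range -0.56 to 0.39), Lclat1 (0.089 with library totals) and Agpat1 (0.39 with library totals, 0.021 with the 10 CPM filter, -0.11 to 0.065 when each library was left out). The cause was not tested. No paired analysis was possible because the labels do not pair animals. With sex as a term all 10 members were called higher, as were 23.8% of all genes. Depth does not limit the members, and 3 animals per genotype do: no single ratio can go below an exact p of 0.1.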

Other observations

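Within wild type, replicate 3 stood apart from the others by a different factor in each gene. Its level over the mean of the other wild-type libraries was 6.88 for Dgat2, 5.22 for Pnpla3, 3.85 for Pcx and 4.08 for Mogat1, against 2.59 for the fat cell marker Adipoq, 1.49 for Gpam and 1.45 for Lpl. Pnpla3, an acyltransferase and lipase gene induced by feeding and insulin, had 4.77, 4.86 and 25.2 CPM in the wild-type mice against 36.2, 45.6 and 103.5 CPM in the knockouts and missed the threshold (edgeR adjusted p = 0.0519). Pcx, which encodes the pyruvate carboxylase that feeds Pck1, had 71.5, 77.3 and 286 CPM in the wild-type mice against 633, 464 and 1143 CPM in the knockouts, with knockout replicate 3 highest. The markers Retn and Adig showed the same gap within wild type, 5.33 and 5.22. These genes were chosen after their values were seen, and the animal is the only wild-type female by its transcripts.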
